A study of Mus musculus with 9 samples.

Results

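Natural killer (NK) receptors and the ligands of the activating receptor NKG2D were followed as 9 transcripts, out of 56398 features counted, in tumours of the mouse colon carcinoma line CT26 and in healthy colon. The members were a fixed list of symbols from the GENCODE M21 annotation, matched to the Ensembl identifiers of the deposited tables, and all 9 were found: 5 receptor genes (Klrk1, Ncr1, Klrd1, Klrc1 and Klrb1c) and 4 ligand genes (Ulbp1, Raet1d, Raet1e and H60b). The study measured RNA from 9 BALB/c samples in 3 groups of 3. The AC group held tumours grown from injected CT26 cells in mice that received Astragalus and Curcuma phaeocaulis Valeton at 2:1, daily, at 6 g/kg. The model group held CT26 tumours from mice that received saline on the same schedule, labelled with the same 6 g/kg, and the sham group held healthy colon. CT26 cells are 1 transplanted line of BALB/c origin, so tumour and colon differ in cell origin as well as in disease, and nothing in the labels ties each sample to an animal of its own. All p-values therefore measure only how far these samples scatter, and that scatter may be technical.

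NK cells kill target cells according to the balance of activating and inhibitory receptors on their surface. Klrk1 encodes NKG2D, an activating receptor that recognises stress-induced, MHC class I-like proteins on target cells, and Ncr1 encodes the activating receptor NKp46, a defining marker of NK cells and of some other innate lymphoid cells. Klrd1 encodes CD94, which pairs with NKG2A, the inhibitory product of Klrc1, to bind the nonclassical MHC molecule Qa-1. Klrb1c encodes NK1.1, a C-type lectin whose classical antibody epitope is absent in BALB/c mice. NKG2D, CD94 and NKG2A are also carried by activated CD8 T cells, so these transcripts are not confined to NK cells. Ulbp1 encodes MULT-1, Raet1d and Raet1e encode RAE-1 delta and epsilon, and H60b belongs to the H60 family. All are ligands of mouse NKG2D. RAE-1 and H60 genes differ between mouse strains, RAE-1 delta and epsilon being the forms of the C57BL/6 reference genome.

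In GENCODE M21 on GRCm38, 4 of the 5 receptor genes lay within 0.9 Mb of chromosome 6, the NK gene complex. Klrb1c (ENSMUSG00000030325) spanned 128778485 to 128789215, Klrd1 (ENSMUSG00000030165) 129591782 to 129598775, Klrk1 (ENSMUSG00000030149) 129610323 to 129623864 and Klrc1 (ENSMUSG00000030167) 129666015 to 129678973. Ncr1 (ENSMUSG00000062524) lay on chromosome 7 from 4337724 to 4345164. The ligand genes were on chromosome 10, with Ulbp1 (ENSMUSG00000079685) from 7440362 to 7473638. H60b (ENSMUSG00000075297), from 22158586 to 22288849, and Raet1d (ENSMUSG00000078452), from 22360552 to 22374139, both lay inside the annotated span of Raet1e (ENSMUSG00000053219), 22158569 to 22374139. All 9 were annotated as protein coding.

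Several members share sequence with neighbours, and their values are uncertain to that extent. Of the 50-base words in Raet1d transcripts, 55.8% also occurred in Raet1e transcripts, and 40.3% of those of Raet1e occurred in Raet1d. Klrc1 shared 36.6% of its words with Klrc2, an activating receptor of the same family. For Klrb1c the highest share was 12.4%, with the overlapping gene model Gm44511, and for H60b it was 7.58%, with Raet1e. Ulbp1 shared at most 1.6% with any gene, and Klrk1, Ncr1 and Klrd1 shared none. How the counting treated such reads, and whether it used strand, is not given in the sources used here.

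RefSeq promoter windows on GRCm38.p6, from 250 bases before to 50 bases after a start, were found for 7 of the 9 members. Klrd1 and H60b had none. The RAE-1 pair is shown to make plain how alike the copies are. The Raet1d window (chr10:22361644-22361943, plus strand) and the second of the 2 Raet1e windows (chr10:22173247-22173546, plus strand) matched at 295 of 298 aligned bases, and capitals mark the 3 that differ.
Raet1d: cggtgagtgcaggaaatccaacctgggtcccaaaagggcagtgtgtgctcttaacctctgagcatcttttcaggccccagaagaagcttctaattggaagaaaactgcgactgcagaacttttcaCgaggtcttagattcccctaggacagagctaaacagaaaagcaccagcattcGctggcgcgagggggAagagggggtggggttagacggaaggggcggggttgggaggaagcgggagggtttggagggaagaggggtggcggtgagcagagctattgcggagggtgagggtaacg
Raet1e: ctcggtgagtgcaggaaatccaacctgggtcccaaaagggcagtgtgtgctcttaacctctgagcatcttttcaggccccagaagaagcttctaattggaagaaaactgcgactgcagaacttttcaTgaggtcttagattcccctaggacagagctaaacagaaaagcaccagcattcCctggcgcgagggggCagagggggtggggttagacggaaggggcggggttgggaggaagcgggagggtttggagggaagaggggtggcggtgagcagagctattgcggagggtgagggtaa

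The promoters of Klrk1 (chr6:129623815-129624114, minus strand), Klrc1 (chr6:129678924-129679223, minus strand) and Ulbp1 (chr10:7473428-7473727, minus strand) are shown because these genes had the largest fold changes between model tumours and colon among the members with a window. Capitals mark the RUNX core TGTGGT, read on both strands.
Klrk1: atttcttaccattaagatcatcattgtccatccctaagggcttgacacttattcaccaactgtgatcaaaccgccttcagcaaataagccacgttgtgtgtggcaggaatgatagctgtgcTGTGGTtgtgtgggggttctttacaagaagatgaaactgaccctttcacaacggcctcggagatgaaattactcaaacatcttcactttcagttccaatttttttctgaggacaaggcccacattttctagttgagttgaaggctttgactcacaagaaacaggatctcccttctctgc
Klrc1: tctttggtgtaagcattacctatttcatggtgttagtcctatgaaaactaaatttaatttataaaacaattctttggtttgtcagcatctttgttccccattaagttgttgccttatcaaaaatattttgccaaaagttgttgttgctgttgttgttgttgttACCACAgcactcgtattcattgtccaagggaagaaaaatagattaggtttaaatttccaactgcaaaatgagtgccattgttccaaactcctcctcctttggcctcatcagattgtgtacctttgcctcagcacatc
Ulbp1: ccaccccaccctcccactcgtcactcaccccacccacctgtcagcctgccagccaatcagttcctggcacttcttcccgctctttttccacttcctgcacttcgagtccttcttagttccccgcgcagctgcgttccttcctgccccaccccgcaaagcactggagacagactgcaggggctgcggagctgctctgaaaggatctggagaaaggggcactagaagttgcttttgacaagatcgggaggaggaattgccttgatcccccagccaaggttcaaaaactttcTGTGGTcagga
The RUNX core occurred in the windows of all 4 receptor genes that had one (Klrk1, Ncr1, Klrc1, Klrb1c) and, among the 3 ligand genes, in Ulbp1. It was in 16.8% of the 32851 promoter windows of the same length. The GC box GGGCGG, also read on both strands, occurred in Raet1d and Raet1e and in none of the receptor windows, against 35.7% of all windows. The T-box core TCACACC, likewise on both strands, was in none of the members' windows, against 3.98% of all. These motifs do not overlap in the members' windows, and a match describes letters, not binding.

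Total counts per library ran from 15690038 to 23476056, and 3 counts, taken as the floor for a gene not detected, correspond to 0.112 to 0.24 CPM (each count set against the library total, on the usual scale) after scaling. The labelled tissues showed their markers: the 8 colon epithelium markers summed to 271 to 907 CPM in AC tumours, 191 to 528 CPM in model tumours and 19360 to 26990 CPM in colon. The libraries AC 3 and model 1 stood apart among tumours, with 67.6 and 35.6 CPM of the epithelial gene Epcam against at most 0.95 CPM in the other tumours. Sham 1 stood apart in colon, with summed B cell markers of 1032 CPM against 125 and 64.4 CPM in sham 2 and 3. In bulk tissue, fewer cells of a type and less RNA per cell cannot be told apart.

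Per gene length, the receptor transcripts were rare, and Ulbp1 dominated the 4 ligand transcripts followed here. The NKG2D ligand genes Raet1a, Raet1b, Raet1c and H60a were not matched in the counts, so the shares cover the 4 members alone. In FPKM, which divides counts by gene length and library total, the 4 ligands summed to 27.2 ± 5.49 in AC tumours, 29.3 ± 1.92 in model tumours and 2.02 ± 1.32 in colon (SD, n = 3 each). Ulbp1 made up 84.3% to 87.1% of that sum in AC tumours, 84.6% to 86.3% in model tumours and 51.4% to 71.3% in colon. H60b followed with 8.89% to 11% in AC tumours, 9.8% to 11.4% in model tumours and 10.3% to 26.1% in colon. The 5 receptors summed to 8.22 ± 2.33 FPKM in AC tumours, 9.57 ± 2.26 FPKM in model tumours and 4.42 ± 0.507 FPKM in colon.

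Klrd1 had the highest mean FPKM of the receptors in every group, at 4.02 ± 1.13 in AC tumours, 4.42 ± 1.16 in model tumours and 3.29 ± 0.718 in colon (SD, n = 3 each). This order rests on the length divisor, with 1281 exon bases for Klrd1 and 7183 for Klrk1. In counts summed over a group, Klrk1 exceeded Klrd1 in AC tumours (288 against 257) and model tumours (623 against 338), but not in colon (79 against 228). The library AC 1 went the other way, with 90 counts of Klrk1 against 98 of Klrd1. In AC tumours Ncr1 came next at 2.29 ± 1.17 FPKM, and Klrc1 (0.833 ± 0.153) and Klrk1 (0.809 ± 0.286) did not differ beyond their spread. In model tumours the means of Ncr1 (1.74 ± 0.134), Klrc1 (1.65 ± 0.768) and Klrk1 (1.47 ± 0.362) differed by less than the larger SD of each pair. Colon had 0.499 ± 0.151 FPKM of Ncr1, followed by Klrb1c (0.285 ± 0.0113), Klrk1 (0.207 ± 0.0574) and Klrc1 (0.138 ± 0.0792). The means of Klrk1 and Klrc1 differed by less than the larger of their SDs. Klrb1c was the lowest receptor in AC tumours (0.269 ± 0.0611) and in model tumours (0.281 ± 0.125).

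**Figure D1:**
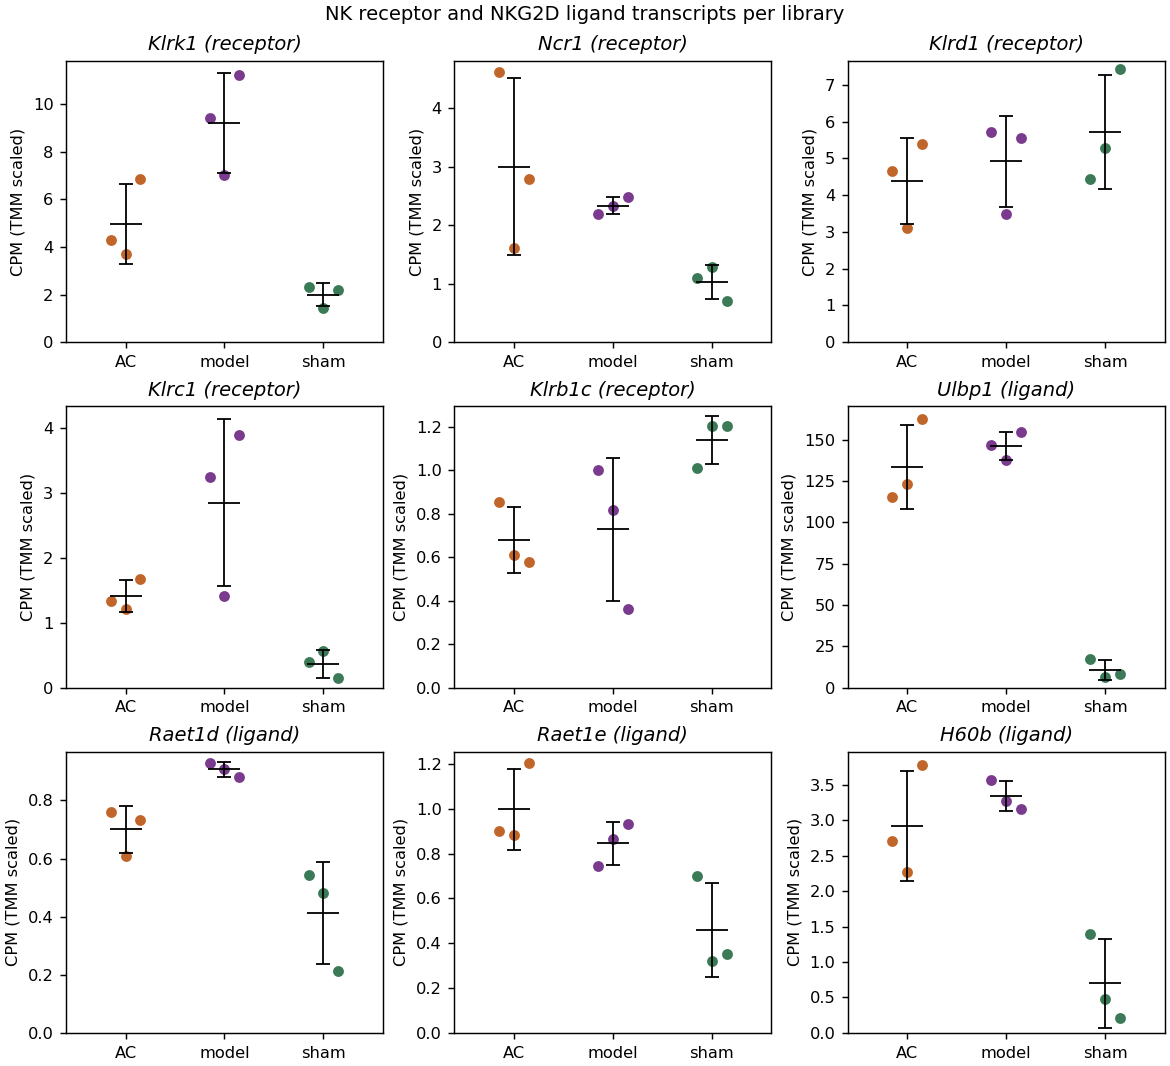
Levels of the 9 members in each library, as CPM scaled by TMM over all libraries, for AC tumours, model tumours and sham colon (points, libraries; bars, mean and SD, n = 3). Klrk1, Klrc1, Ulbp1, H60b, Ncr1, Raet1d and Raet1e lie higher in every tumour than in any colon library, while Klrd1 overlaps between groups and Klrb1c lies lower in every tumour on this scale but not in FPKM.

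The first question was how saline-treated tumours differ from normal tissue. Of the 9 members, 6 rose in model tumours, none fell and 3 were not called by edgeR's quasi-likelihood test at an adjusted p of 0.05. Across all 18228 genes tested, 69.7% were called, 36.8% higher and 32.9% lower, so a call here is common. The members' median log2 fold change was 1.197, against 0.12 over all genes tested. Without scaling factors the median of all genes moved up by 0.60 and the calls split into 9058 higher and 4405 lower, against 6700 higher and 5997 lower with them.

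Ulbp1 had the largest rise of the members. It measured 146, 138 and 154 CPM in model tumours 1, 2 and 3, against 17.3, 6.25 and 8.14 CPM in sham 1, 2 and 3. Every tumour lay far above every colon library, and sham 1 was the highest of the colon libraries. The log2 fold change was 3.79 (SE 0.421, adjusted p 0.000338), a 13.8-fold rise. H60b measured 3.57, 3.27 and 3.16 CPM in model tumours, against 1.4, 0.481 and 0.212 CPM in colon. The groups did not overlap, and sham 1 again was the highest colon library (log2 fold change 2.26, SE 0.627, adjusted p 0.0162). That call was lost without sham 2 (adjusted p 0.0574).

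Raet1d and Raet1e transcripts were near 1 CPM in tumours and their reads cannot be fully assigned between the copies. Other RAE-1 genes of the list (Raet1a, Raet1b and Raet1c) were not matched, so their level is not known here. Raet1d measured 0.93, 0.909 and 0.881 CPM in model tumours and 0.545, 0.481 and 0.212 CPM in colon, resting on 62 and 16 counts in all. The groups did not overlap, and its rise (log2 fold change 1.15, SE 0.416, adjusted p 0.0431) was lost when any 1 library other than sham 1 was left out, with adjusted p from 0.0938 without model 3 to 0.161 without sham 3. Raet1e had a log2 fold change of 0.88 (SE 0.41, adjusted p 0.0938) and was not called, though without sham 1 it was (1.34, adjusted p 0.0314). It measured 0.744, 0.864 and 0.933 CPM in model tumours and 0.7, 0.321 and 0.354 CPM in colon, with sham 1 close to the tumours. Without sham 1 the fold changes of H60b and Ulbp1 were also larger, at 3.31 and 4.38 on the log2 scale.

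Among receptors, Klrk1 and Klrc1 rose most. Klrk1 measured 9.41, 7 and 11.2 CPM in model tumours and 2.33, 1.44 and 2.2 CPM in colon. Every tumour lay above every colon library, and the fold was 4.65 (log2 2.22, SE 0.321, adjusted p 0.00102). Klrc1 measured 3.24, 1.41 and 3.89 CPM in model tumours, and 0.389, 0.561 and 0.142 CPM in colon on 14 counts in all. Its groups did not overlap either, with model 2 well below the other tumours (log2 fold change 2.98, SE 0.618, adjusted p 0.0048). Klrc2, which shares sequence with Klrc1 and was picked after its values were seen, also rose (log2 fold change 3.47, SE 0.925, adjusted p 0.0139; 4.76 without sham 2 and 2.76 without sham 3).

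Ncr1 measured 2.2, 2.32 and 2.49 CPM in model tumours and 1.09, 1.28 and 0.708 CPM in colon. Tumours were close to each other and above all colon libraries (log2 fold change 1.197, SE 0.334, adjusted p 0.0163). The call was lost without model 3 (adjusted p 0.0515) or without sham 3 (log2 fold change 0.90, adjusted p 0.071).

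Klrd1 and Klrb1c were not called. Klrd1 measured 5.73, 3.5 and 5.55 CPM in model tumours and 4.43, 5.29 and 7.43 CPM in colon, with the groups overlapping. Its fold was 0.877, with a 95% interval of 0.518 to 1.49, and the sign of its log2 fold change of -0.19 turned without scaling factors (0.42) and without model 2 (0.045). Klrb1c measured 1, 0.818 and 0.363 CPM in model tumours and 1.01, 1.2 and 1.2 CPM in colon. The tumours lay below colon, model 1 only just, and the fold was 0.664, with an interval of 0.32 to 1.38 (adjusted p 0.265). In FPKM, which carry no scaling factor, the groups overlapped at 0.388, 0.312 and 0.143 in model tumours and 0.273, 0.295 and 0.288 in colon. For 8 of the 9 members model and colon libraries lay fully apart, 7 higher and 1 lower in tumours, as they did for 76.9% of all genes tested (41.3% higher, 35.6% lower).

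**Figure D2:**
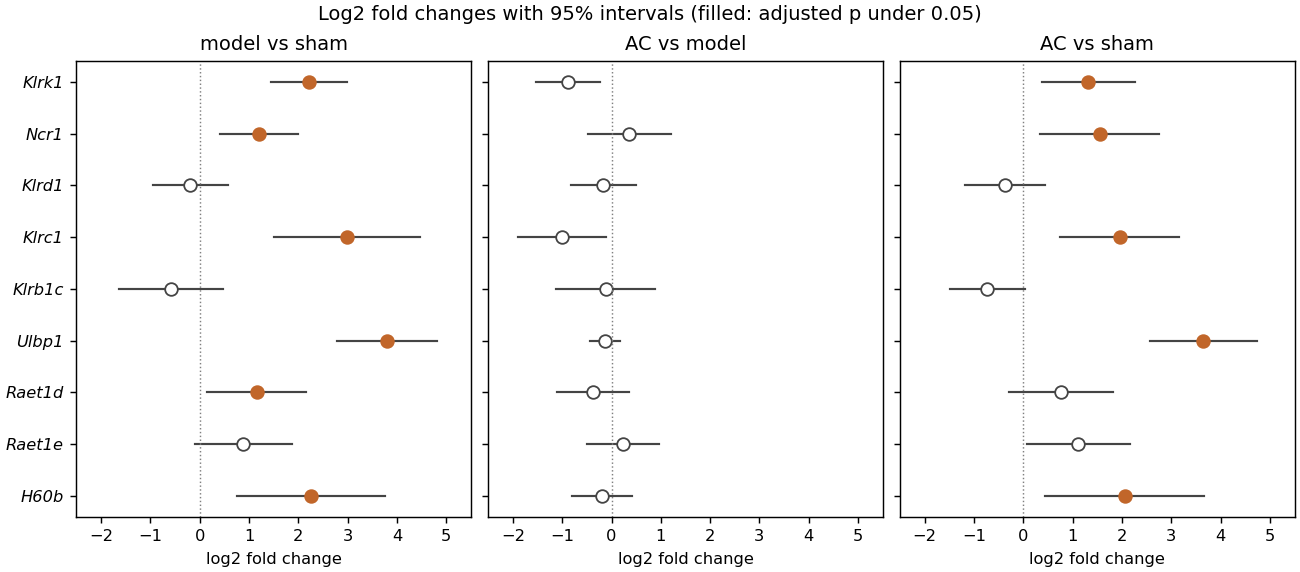
Log2 fold changes of the 9 members (rows) in the 3 comparisons (panels), with 95% intervals from the edgeR fit; filled points have an adjusted p under 0.05. Ulbp1, Klrc1, Klrk1, H60b and Ncr1 are filled in both comparisons with colon, Raet1d in model tumours against colon alone, and none is filled in AC against model tumours.

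Within a library, the ratio of NKG2D to CD94 transcripts was higher in tumours, a measure chosen after the values were seen. Klrk1 FPKM divided by Klrd1 FPKM was 0.293, 0.357 and 0.36 in model tumours, against 0.0939, 0.0486 and 0.0527 in colon. The ratio of Klrc1 to Klrd1 was 0.365, 0.26 and 0.453 in model tumours, against 0.0566, 0.0685 and 0.0123 in colon. These ratios, which do not depend on library scaling, separated the groups completely, at the smallest p an exact two-sided permutation test of 3 against 3 samples can give (0.1, adjusted to 0.15 over 9 ratio comparisons). By contrast the ratio of Klrc1 to Klrk1 overlapped, at 1.25, 0.729 and 1.26 in model tumours and 0.603, 1.41 and 0.234 in colon (exact p 0.4, adjusted 0.45). The colon ratios rest on 2 to 7 Klrc1 counts per library.

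**Figure D3:**
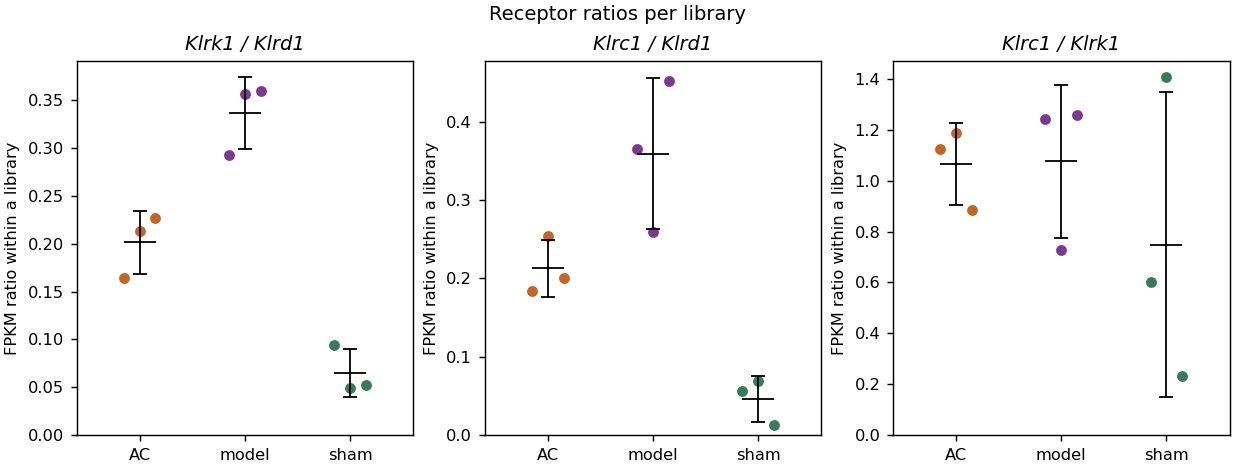
Ratios of FPKM between receptor genes within each library, for AC tumours, model tumours and sham colon (points, libraries; bars, mean and SD, n = 3). Klrk1/Klrd1 and Klrc1/Klrd1 order the groups model, AC, colon with no overlap, and Klrc1/Klrk1 overlaps in all groups.

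The list of other NK receptors was mixed, with 7 of 17 tested genes higher in model tumours, 5 lower and 5 not called. Fcgr3, a receptor for IgG carried by macrophages as well as NK cells, rose: it stood at 55.9 ± 7.88 CPM in model tumours and 3.99 ± 0.93 CPM in colon (log2 fold change 3.81, adjusted p 4.23e-05). Klra3, a Ly49 receptor of a family of close copies and so uncertain, reached 1.07 CPM in model tumours and had 0 counts in every colon library, at least 4.68-fold higher against a mean floor of 3 counts per library. Klra5, of the same family, and Cd160, a receptor of intraepithelial and cytotoxic lymphocytes, fell (log2 fold changes -2.499 and -1.67, adjusted p 0.00223 and 0.0081). The 9 macrophage markers all rose as well, summing to 854 to 1130 CPM in model tumours and 60.1 to 109 CPM in colon, and their part in the Fcgr3 result was not tested.

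Adaptor and signalling genes were mixed too, with 2 of 13 tested genes higher, 5 lower and 6 not called. The immunoreceptor adaptors Fcer1g and Tyrobp (DAP12), both also abundant in macrophages, rose to 28.4 ± 4.15 and 19.9 ± 5.86 CPM in model tumours, against 4.64 ± 0.89 and 4.3 ± 1.4 CPM in colon (adjusted p 0.000146 and 0.00147). Syk, a kinase downstream of such adaptors, and Grb2, an adaptor of growth factor receptors, fell (log2 fold changes -2.85 and -1.42, adjusted p 1.85e-05 and 0.000137). Hcst (DAP10), an adaptor of NKG2D, was picked after its values were seen. It fell to 0.632 ± 0.118 CPM in model tumours, against 1.85 ± 0.717 CPM in colon (log2 fold change -1.53, adjusted p 0.016), the direction opposite to Klrk1. That call was lost without model 1, 2 or 3 (adjusted p 0.0517, 0.0692 and 0.0528) and without scaling factors (0.0926).

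Transcription factors of the NK lineage gave 2 of 9 tested genes higher and 2 lower. Zeb2 and Nfil3, both needed for NK maturation or development, rose (log2 fold changes 4.49 and 2.51, adjusted p 5.96e-05 and 0.000146), while Irf8 and Tox fell (-2.27 and -2.00, adjusted p 0.000116 and 0.00435). Zeb2 is also a mesenchymal transition factor and was at 243 ± 7.57 CPM in model tumours and 10.9 ± 4.07 CPM in colon. In the cytokine axis, 3 of 10 tested genes rose and 2 fell. Il18rap, a subunit of the interleukin-18 receptor, rose to 282 ± 48.6 CPM in model tumours, against 1.78 ± 0.406 CPM in colon (adjusted p 1.44e-05), and the ligand gene Il18 fell (log2 fold change -6.52, adjusted p 1.57e-05). Il18r1, the gene of the other subunit, was picked after its values were seen. It was at only 4.02 ± 0.315 CPM in model tumours and 2.2 ± 0.76 CPM in colon. Which cells carried Il18rap was not tested. Il12rb1, a chain of the interleukin-12 receptor, rose (3.43, adjusted p 6.63e-05), and Il15, the survival cytokine of NK cells, fell (-1.91, adjusted p 8.17e-05).

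Of 12 tested effector genes, 4 rose, 4 fell and 4 were not called. Prf1 (perforin) rose to 37.1 ± 5.18 CPM in model tumours, against 0.568 ± 0.247 CPM in colon, and the chemokine gene Ccl4 also rose (log2 fold changes 6.04 and 2.06, adjusted p 4.07e-05 and 0.00531). The death ligand gene Tnfsf10 (TRAIL) and the chemokine gene Ccl5 fell (log2 fold changes -3.995 and -1.88, adjusted p 2.01e-05 and 0.0014). Tnfsf10 was at 193.5 ± 20.6 CPM in colon, where Ncr1 was at 1.03 ± 0.292 CPM. Syk, Irf8 and Il18, which also fell, were at 212, 188 and 238 CPM in colon. The part of colon epithelium in these falls was not tested.

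Ligands of other NK receptors mostly fell or were not called, with 1 of 10 tested genes higher and 5 lower. Pvr, a ligand of DNAM-1 and TIGIT, rose to 136 ± 11.2 CPM in model tumours, against 26.8 ± 2.95 CPM in colon (log2 fold change 2.37, adjusted p 3.41e-05). Nectin2, another ligand of DNAM-1, and Clec2d, whose product Clr-b binds an inhibitory receptor of the NKR-P1 family, fell (-2.81 and -3.22, adjusted p 7.7e-05 and 0.000653). H2-T23, the Qa-1 gene, was chosen after its values were seen and was not called: it measured 60.9 ± 8.04 CPM in model tumours and 96.3 ± 37.1 CPM in colon (log2 fold change -0.66, adjusted p 0.0895). It was called without sham 2 or sham 3 (adjusted p 0.0476 and 0.0295), with DESeq2 (0.0324) and with all 9 libraries in one fit (0.0432). H60c, the one other NKG2D ligand of the list in the table, was at most 0.104 CPM in model libraries and 0.0708 CPM in colon libraries, and was not tested.

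Proteases and inhibitors linked to ligand shedding gave 4 of 7 genes higher and 1 lower. Timp1 and Mmp14 rose (log2 fold changes 8.44 and 3.12, adjusted p 3.96e-05 and 7.56e-05), and Adam10, a sheddase, fell (-1.53, adjusted p 0.000237).

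Markers of lymphocytes that can carry the same receptors were mixed. Of the 13 T cell markers, none was called higher, 5 fell and 8 were not called. The list summed to 30 to 39 CPM in model tumours, against 191 CPM in sham 1, 56.9 CPM in sham 2 and 48.9 CPM in sham 3, so that sham 1 set much of the colon level. The chains of the CD8 co-receptor, chosen after their values were seen, were not called. Cd8b1 measured 2.87, 2.46 and 3.01 CPM in model tumours and 1.95, 0.881 and 0.425 CPM in colon. It was higher in every tumour than in any colon library (log2 fold change 1.36, SE 0.549, adjusted p 0.0626). Cd8a overlapped, at 11, 7.27 and 12.1 CPM in model tumours and 7.54, 13.1 and 15.4 CPM in colon (fold 0.857, interval 0.502 to 1.46). Cd3e, which encodes CD3 epsilon, fell to 3.51 ± 0.474 CPM in model tumours, against 9.05 ± 1.34 CPM in colon (log2 fold change -1.36, adjusted p 0.00269), and Cd3d also fell (-3.42, adjusted p 0.00802), with 15.9 CPM in sham 1 against 4.33 and 2.62 CPM in sham 2 and 3. The 3 gamma delta T cell markers in the table all fell, among them Trdc and Sox13 (log2 fold changes -2.24 and -1.86, adjusted p 0.00127 and 0.00311). The remaining marker, Blk, was at 30.4 CPM in sham 1, against 6.41 and 4.25 CPM in sham 2 and 3. Sham 1 was also the colon library with 1032 CPM of summed B cell markers, and the part of B cells in the Blk values was not tested. Trdc made up a small part of the marker sums in colon. It was at 2.72, 4.17 and 3.89 CPM in sham 1, 2 and 3, where the sums were 42.6, 32.4 and 30.8 CPM. Of the ILC2 and ILC3 markers, Il1rl1 and Ahr rose (log2 fold changes 6.98 and 2.03, adjusted p 3.65e-05 and 0.00011). The part of these cells in the receptor results was not tested.

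**Figure D4:**
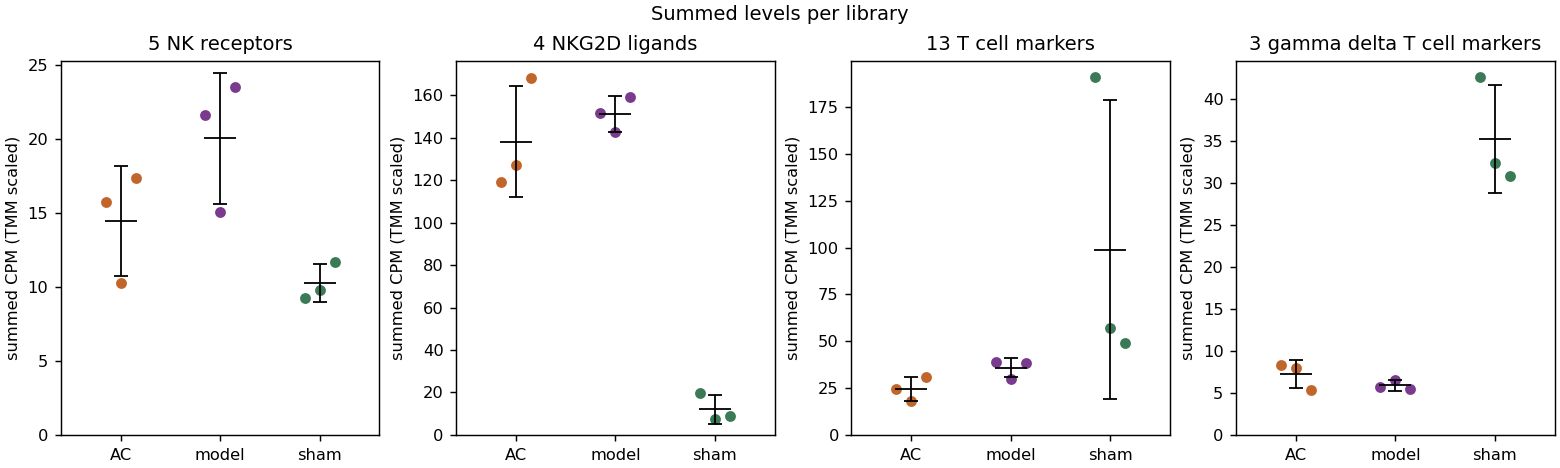
Summed CPM of the 5 receptors, the 4 ligands, 13 T cell markers and 3 gamma delta T cell markers in each library, for AC tumours, model tumours and sham colon (points, libraries; bars, mean and SD, n = 3). The ligand sum is 119 to 168 CPM in AC tumours and 143 to 159 CPM in model tumours, against 7.53 to 19.9 CPM in colon. Both marker sums are higher in colon than in any tumour, with Trdc a small part of the gamma delta sum in colon.

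AC tumours were compared with model tumours to ask what the herb pair changed. None of the 9 members was called, where edgeR called 0 of 17137 genes (0%) with a smallest adjusted p of 0.103 and 2254 genes had an unadjusted p under 0.05. DESeq2 called 305 genes, none of them among the 6 members to which it gave an adjusted p. Klrb1c, Raet1d and Raet1e had none. The members' median log2 fold change was -0.17, against 0.01 over all genes tested.

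Klrk1 had the smallest p of the members. It measured 4.28, 3.71 and 6.87 CPM in AC tumours 1, 2 and 3, against 9.41, 7 and 11.2 CPM in model tumours. The groups did not overlap, although AC 3 came close to model 2. Klrk1 and Raet1d were the 2 of 9 members whose libraries lay apart, both lower in AC tumours, against 19% of all genes tested (9.06% higher, 9.99% lower). The fold was 0.539, with a 95% interval of 0.344 to 0.846, an unadjusted p of 0.0128 and an adjusted p of 0.285 by edgeR. Without AC 3 the adjusted p was 0.0423 (log2 fold change -1.22), and with any other single library left out it lay between 0.386 and 0.683. Klrc1 measured 1.33, 1.22 and 1.68 CPM in AC tumours, against 3.24, 1.41 and 3.89 CPM in model tumours. Model 2 lay within the AC range, and the fold of 0.497 (interval 0.267 to 0.922) had an adjusted p of 0.336.

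The other receptors differed less. Klrd1 measured 4.66, 3.1 and 5.4 CPM in AC tumours, so that its ratio to Klrk1 shifted: Klrk1 over Klrd1 in FPKM was 0.164, 0.213 and 0.227 in AC tumours, against 0.293, 0.357 and 0.36 in model tumours. Klrc1 over Klrd1 was 0.184, 0.254 and 0.201 in AC tumours, against 0.365, 0.26 and 0.453 in model tumours, and neither ratio overlapped between the groups (exact p 0.1 each, the smallest possible, adjusted 0.15). The fold of Klrd1 itself was 0.891 (interval 0.563 to 1.41), and the sign of its log2 fold change of -0.17 turned without AC 2 (0.03). Ncr1 measured 4.61, 1.6 and 2.78 CPM in AC tumours, lying on both sides of the model tumours. AC 1 held the highest Ncr1 level of all 9 libraries, and without it the log2 fold change of 0.36 became -0.08. Klrb1c stood at 0.855, 0.609 and 0.577 CPM in AC tumours and gave a fold of 0.921 (interval 0.46 to 1.85).

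Ligand transcripts were close between the tumour groups. Ulbp1 measured 115, 123 and 162 CPM in AC tumours, against 146, 138 and 154 CPM in model tumours, a fold of 0.914 with an interval of 0.736 to 1.13. AC 3 was the highest of the 6 and AC 1 the lowest. H60b measured 2.71, 2.27 and 3.78 CPM in AC tumours, against 3.57, 3.27 and 3.16 CPM in model tumours (fold 0.875, interval 0.576 to 1.33). Raet1d was lower in every AC tumour, at 0.76, 0.609 and 0.734 CPM, than in any model tumour, but the difference amounts to 41 against 62 counts (fold 0.774, interval 0.468 to 1.28, adjusted p 0.646). Raet1e, at 0.903, 0.885 and 1.21 CPM in AC tumours, had a fold of 1.18 (interval 0.71 to 1.96).

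None of the genes in the other NK, T cell and marker lists was called either. Summed T cell markers were 18.2 to 30.8 CPM in AC tumours and 30 to 39 CPM in model tumours, and those of macrophages 955 to 1387 CPM in AC tumours and 854 to 1130 CPM in model tumours. The T cell list's median log2 fold change was -0.63 over 12 tested markers. Cd8b1 was lower in every AC tumour, at 1.05, 1.11 and 1.68 CPM, than in any model tumour and was not called (log2 fold change -1.12, SE 0.293, adjusted p 0.257). The part of T cells in the Klrk1 and Klrc1 values was not tested.

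AC tumours were also set against colon, a comparison that shares its tumours and its colon libraries with the others. Of the 9 members, 5 rose, none fell and 4 were not called, where 68.2% of 17832 genes were called, 35.5% higher and 32.7% lower. Without scaling factors those calls split into 8830 higher and 4114 lower genes, against 6339 and 5826, with the median of all genes moved up by 0.65. Ulbp1 rose 12.6-fold (log2 3.65, SE 0.449, adjusted p 0.00061) and Klrc1 3.88-fold (log2 1.96, SE 0.501, adjusted p 0.0125), and both calls held with any 1 library left out.

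The other calls each rested on few libraries. Klrk1 rose 2.5-fold (log2 1.32, SE 0.393, adjusted p 0.0223), and was not called without AC 3 (adjusted p 0.0633) or sham 2 (0.0708). Ncr1 rose 2.93-fold (log2 1.55, SE 0.499, adjusted p 0.03), and was not called without AC 1 (0.104), AC 3 (0.0591), sham 2 (0.0562) or sham 3 (0.0945). H60b rose 4.15-fold (log2 2.05, SE 0.671, adjusted p 0.0316), a call lost without any 1 library other than sham 1, with adjusted p from 0.0551 without AC 2 to 0.0929 without sham 2, and without sham 1 its log2 fold change was 3.01. Raet1e (log2 1.11, adjusted p 0.0585) was called without sham 1 (1.48, adjusted p 0.0246) and Raet1d (0.77, adjusted p 0.161) was not called with any 1 library left out. Klrd1 and Klrb1c had folds of 0.777 (interval 0.443 to 1.36) and 0.603 (0.355 to 1.02), and the log2 fold change of Klrd1 of -0.36 turned to 0.29 without scaling factors. For 8 of the 9 members AC and colon libraries lay fully apart, 7 higher and 1 lower in tumours, as they did for 75.7% of all genes tested (40.5% higher, 35.3% lower).

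The wider lists again had members on both sides of colon. Of 18 other NK receptors tested, 8 rose and 4 fell. Klrg1, a receptor of mature NK and effector T cells, rose to 2.99 ± 1.62 CPM in AC tumours, against 0.0519 ± 0.0898 CPM in colon (adjusted p 0.00218). AC 1 was at 4.8 CPM, against 1.66 and 2.52 CPM in AC 2 and 3. Klrb1b fell (log2 fold change -1.88, adjusted p 0.0132), a call lost without AC 1 (0.0606), AC 2 (0.0585) or scaling factors (0.0516). Neither change was particular to AC tumours. In model tumours against colon Klrg1 was also called higher (log2 fold change 5.15, adjusted p 0.00117) and Klrb1b lower (-1.48, adjusted p 0.0116). Of 13 adaptor genes 2 rose and 5 fell, and Hcst was not called (log2 fold change -1.35, adjusted p 0.0508), though it was without sham 3 (0.0421), with DESeq2 (0.0103), with all 9 libraries in one fit (0.0259), without robust estimation (0.0488) and with the replicate block (0.0484). Transcription factors gave 2 higher and 2 lower of 9, the cytokine axis 4 higher and 2 lower of 10, effector genes 3 higher and 3 lower of 11, other receptor ligands 1 higher and 5 lower of 10, and shedding genes 3 higher and 1 lower of 7. Of 12 T cell markers tested, 5 fell and none rose, with Cd3e at 2.16 ± 0.518 CPM in AC tumours and 9.05 ± 1.34 CPM in colon (adjusted p 0.00141).

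The genes whose profiles lay nearest to each member over the 9 libraries were listed for the 6 members with a mean of at least 1 CPM. Likeness was the root mean square difference between centred log2(CPM + 0.5) profiles, over 13040 other genes. Much of it can come from the step between tumours and colon, which many genes share. For 41.3% of genes tested, every model tumour lay above every colon library. Whether a member shares a function with its nearest genes was not tested. For Ulbp1 the nearest were Kntc1, a kinetochore gene (0.11), the cell cycle transcription factor gene E2f8 (0.17) and Ccdc88a (0.18). For H60b they were Phf11a (0.13), the mitotic kinase gene Nek2 (0.16) and Tsen15 (0.17). Klrk1 lay nearest to Calcrl, a receptor of endothelial cells (0.185), Pcdhga12 (0.19) and Eya4 (0.20), and the genes near Klrc1 included Abcd2 (0.24) and Plxdc1 (0.29). Pcgf1 (0.26), Sapcd1 (0.26) and Ccnq (0.27) were nearest to Ncr1, and Tmem175 (0.18), Auh (0.19) and Zfp949 (0.20) to Klrd1. Pcdhga12 belongs to a cluster of overlapping protocadherin genes and its value is uncertain.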

How the data were processed

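RNA-seq libraries of 9 BALB/c mouse samples were grouped by the treatment and tissue given for each, with replicate numbers from the titles. Trizol extraction and the VAHTS Universal V6 library kit were used, per the labels' protocols. The authors deposited raw gene counts; featureCounts 1.5.0-p3 and build mm9 are named in the submitters' processing notes; the aligner is not given in the sources used here. The authors also deposited FPKM values, which equal these counts divided by gene length and library total. For 95.4% of 11030 genes the implied length lay within 1% of GENCODE M21 exons, so M21 positions on GRCm38 are printed.

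For each comparison, edgeR 4.0.16 (R 4.3.3) was fitted to the 6 libraries concerned: filterByExpr, TMM, a robust quasi-likelihood fit and Benjamini-Hochberg adjustment over all genes tested, with a threshold of 0.05. Printed CPM are scaled by TMM over all 9 libraries; ± is SD over 3 libraries, and intervals are 95%. Alternatives were DESeq2 1.42.0, upper-quartile or no factors, no filter, 1 fit of 9 libraries, a fit without robust estimation, a replicate block and each library left out. In counts simulated for AC against model (17137 genes), 44 of 50 genes changed 4-fold and 18 of 50 changed 2-fold were recovered, with 6 false among 123 calls. For model against sham (18228 genes) these were 23 and 2 of 50, with 8 false among 72 calls. For AC against sham (17832 genes) they were 26 and 2 of 50, with 6 false among 69. Each simulation changed 50 genes at each fold of 1.5, 2, 4 and 8. That is a far smaller share of genes than was called against colon (69.7% for model, 68.2% for AC). Benjamini-Hochberg adjustment is stricter when few genes change, so the simulated rates against colon may be too low for the real comparisons. Floors cover counting error only. No libraries were identical.

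Members and lists were chosen with earlier results of these data known. Named were the 9 members, up to 2 list genes per direction with the smallest adjusted p in a comparison, and the nearest profiles; others are marked. Of the listed genes, 9 were not matched and are not analysed here. A few genes that the rule would name are not reported here.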

Additional observations from a re-analysis of the deposited data

How the results depend on the processing

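Of 357 member fold changes under the alternatives, 317 kept direction and side of the threshold, 24 lost the call, 8 gained it and 8 changed sign; of the other named genes' fold changes, 1120 kept both, 11 lost the call and 13 gained it. The cause of the changes was not tested. In AC against model tumours, the count of 0 genes called became 305 with DESeq2, 105 with no filter on low counts and 94 without model 1 and AC 3, the tumours with colon epithelium transcripts, an alternative chosen after seeing the data. With each library left out it ran from 0 to 569, the highest without AC 3, and members called ran from 0 to 1. In AC tumours against colon, members called ran from 2 to 6 with each library left out. Sign changes, on the log2 scale, were as follows. Klrd1 turned to 0.42 in model tumours and 0.29 in AC tumours against colon without scaling factors, and ran from -0.342 to 0.045 in model tumours against colon with each library left out. In AC against model tumours, leaving out each library gave -0.081 to 0.659 for Ncr1, -0.36 to 0.03 for Klrd1 and -0.42 to 0.20 for Klrb1c, and without model 1 and AC 3 Klrb1c was 0.28 and Raet1e -0.017. In that setting Klrk1 was -1.195 (adjusted p 0.114).

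Whether replicate numbers pair the samples cannot be settled with 3 libraries per group. Deviations of same-numbered libraries correlated from -0.10 to 0.00 (model and sham), -0.53 to 0.44 (AC and model) and -0.01 to 0.13 (AC and sham). Those of libraries with unlike numbers ran from -0.085 to 0.105, -0.53 to 0.65 and -0.12 to 0.077, in the same order. With the replicate block, 11774, 0 and 11303 genes were called in model against sham, AC against model and AC against sham, and Ncr1 was not called in model tumours (adjusted p 0.0553) or AC tumours (0.0649) against colon, nor Raet1d in model tumours (0.103). Raet1d was also not called there with DESeq2 (0.0959) or with no filter (0.102). Without scaling factors Raet1e was called in both tumour groups against colon (0.0179 in model, 0.0111 in AC), and in AC tumours Raet1d was too (0.027). Raet1e was also called in AC tumours with upper-quartile factors (0.0452) and with all 9 libraries in one fit (0.0294). Depth limits Raet1d, Raet1e, Klrb1c and colon Klrc1, which rest on few counts per library.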

Other observations

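The tumour AC 1 had the highest levels among the 6 tumours of Ncr1 and of several further cytotoxic lymphocyte transcripts, of which 4 are given here. All were chosen after their values were seen, and Gzmb, Nkg7, Fasl and Ctsw, among others, were also highest in AC 1. Klrg1, a receptor of mature NK and effector T cells, was at 4.8 CPM in AC 1, 1.66 CPM in AC 2 and 2.52 CPM in AC 3, against 1.86, 2.32 and 1.92 CPM in model tumours. Prf1, encoding perforin, was at 53.7, 26.4 and 37 CPM in AC tumours, against 38.3, 41.5 and 31.4 CPM in model tumours. The granule protease gene Gzma was at 21.4, 3.93 and 9.18 CPM in AC tumours, against 7.92, 12.1 and 5.81 CPM in model tumours. Eomes, a transcription factor of NK and memory T cells, was at 4.37, 2.21 and 2.94 CPM in AC tumours, against 2.64, 3.32 and 2.02 CPM in model tumours. In AC 1 the FPKM ratio of Ncr1 to Klrk1 was 5.03, against 2.02 and 1.89 in AC 2 and 3 and 1.04 to 1.54 in model tumours. Klrk1 itself was at 4.28 CPM in AC 1, below the 6.87 CPM of AC 3. Other genes of these lists were not highest in AC 1: Klrd1 was at 4.66 CPM there, against 5.73 CPM in model 1, Klrc2 at 2.66 CPM, against 3.39 CPM in model 1, Klre1 at 2.19 CPM, against 3.16 CPM in model 3, Tbx21 at 0.713 CPM, against 1.04 CPM in model 1, and Ccl5 at 1.28 CPM, against 2.18 CPM in model 3. AC 1 also had the highest summed macrophage markers of the tumours, at 1387 CPM, and the part of this in the values above was not tested.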
